A study of Homo sapiens with 10 samples.

Results

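The transcripts of the human mitochondrial genome were examined as the 37 gene symbols beginning with MT-, out of 60642 symbols in the deposited expression table. The set was complete, with 13 protein genes, 2 ribosomal RNA (rRNA) genes and 22 transfer RNA (tRNA) genes. Membership followed from the symbol, but the set itself was selected on its joint share of each sample, and MT-ATP8, MT-CO1 and MT-CO2 were chosen by their levels, so these values are described below and carry no test. P-values given later for the other members on TPM are not independent of that share and are descriptions too.

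The samples were bulk RNA-seq libraries of 5 untreated prostate cancer cultures of human origin, with 2 biological repeats for each of DUCAP, VCAP, LNCaP, PC3 and DU145, 10 in all. All lines grew in RPMI without phenol red, supplemented with fetal bovine serum, and were harvested while growing exponentially. Libraries were strand-specific and enriched for polyadenylated RNA. Each line is a single established culture from a metastasis, and DUCAP and VCAP were derived from the same patient, so differences below are between these cultures. Levels are given as TPM, the usual length-normalised unit, in which reads are divided by an effective gene length and scaled to a fixed total per sample. Genes can then be compared within a sample, though the effective length weighs most on short genes. Column sums were between 982880 and 991998, and the precision rests on the 2 repeats. The paper gives an approximate range of read pairs per sample, but not the depth of each sample. KLK3, a secreted prostate protease, reached 1636 to 2625 TPM in LNCaP and DUCAP, 28.3 and 45.3 TPM in VCAP, and at most 0.77 TPM in DU145 and PC3. ERG, the oncogene rearranged in DUCAP and VCAP, was at 122 to 199 TPM in those lines and at most at 0.19 TPM elsewhere. TMPRSS2, a membrane protease of the luminal prostate cell, was at 84.5 to 299 TPM in LNCaP, DUCAP and VCAP, at most at 0.19 TPM in DU145, and at 18.9 and 22.7 TPM in PC3. Of 4 markers of leukocytes, endothelium, red cells and fibroblasts, 0 reached 1 TPM, their sum was between 0 and 0.91 TPM, and HBB was at 0 throughout.

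The mitochondrial genome is a small circular DNA present in many copies per cell. Both strands are transcribed as long precursors, which are cut mostly at the tRNAs that lie between the other genes. The rRNAs and most of the released mRNAs then receive short adenine tails. The mRNAs encode core subunits of the respiratory chain and of ATP synthase, the rRNAs build the mitochondrial ribosome, and nuclear genes supply the polymerase, the processing enzymes and all other proteins involved. In bulk RNA, fewer mitochondria per cell, less mitochondrial RNA per mitochondrion and a larger nuclear output cannot be told apart.

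Positions are those of RefSeq on GRCh38.p14, where all 37 symbols were found. Of the 13 protein genes, 12 lie on the plus strand, and MT-ND6 (chrM:14149-14673) is the only one on the minus strand. MT-ATP8 overlaps MT-ATP6, and MT-ND4L overlaps MT-ND4, and each pair is known to share an mRNA. Their sequences are shown because the ratio within each pair is compared between lines below. MT-ATP8 is the shortest protein gene, at 207 bases, and its last 46 bases are also the first 46 of MT-ATP6. In the sequences below, taken from the GENCODE transcripts, the shared bases are in capitals.
MT-ATP8, whole, chrM:8366-8572, plus strand: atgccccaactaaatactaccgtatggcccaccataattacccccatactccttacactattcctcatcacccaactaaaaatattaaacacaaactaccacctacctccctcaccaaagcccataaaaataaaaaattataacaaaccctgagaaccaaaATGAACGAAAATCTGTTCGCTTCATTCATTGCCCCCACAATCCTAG
MT-ATP6, first 60 bases, gene at chrM:8527-9207, plus strand: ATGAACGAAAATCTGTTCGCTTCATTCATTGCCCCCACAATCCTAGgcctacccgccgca

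MT-ND4L and MT-ND4 overlap by 7 bases. MT-ND4L has 297 bases and is the next shortest protein gene after MT-ATP8.
MT-ND4L, last 60 bases, gene at chrM:10470-10766, plus strand: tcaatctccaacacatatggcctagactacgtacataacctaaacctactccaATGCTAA
MT-ND4, first 60 bases, gene at chrM:10760-12137, plus strand: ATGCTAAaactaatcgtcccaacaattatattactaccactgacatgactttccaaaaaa

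The mitochondrial transcripts held between 12.7 and 36.0% of the TPM of a sample. The higher values belonged to DUCAP and VCAP, with a mean of 34.5% against 17.3% in the other 6 samples. MT-ATP8 made up part of that distance, as the means were 25.8 and 15.1% without it. With MT-ATP8 left out, VCAP kept 26.4% ± 1.27 (SD, n = 2 here and below), DUCAP 25.3% ± 1.68, LNCaP 17.0% ± 0.516, DU145 16.3% ± 4.53 and PC3 12.1% ± 1.32. The genes of ATP synthase (complex V), MT-ATP8 and MT-ATP6, took 12.2 and 11.0% of all TPM in DUCAP, and the figures were 11.7 and 11.8% for VCAP, 4.96 and 3.56% for DU145, 3.95 and 3.83% for LNCaP, and 2.72 and 3.39% for PC3. All 4 samples of DUCAP and VCAP therefore lay above the other 6. The rRNAs went another way, with 2.22 and 2.42% in LNCaP and between 0.502 and 1.00% in the other 8 samples.

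**Figure D1:**
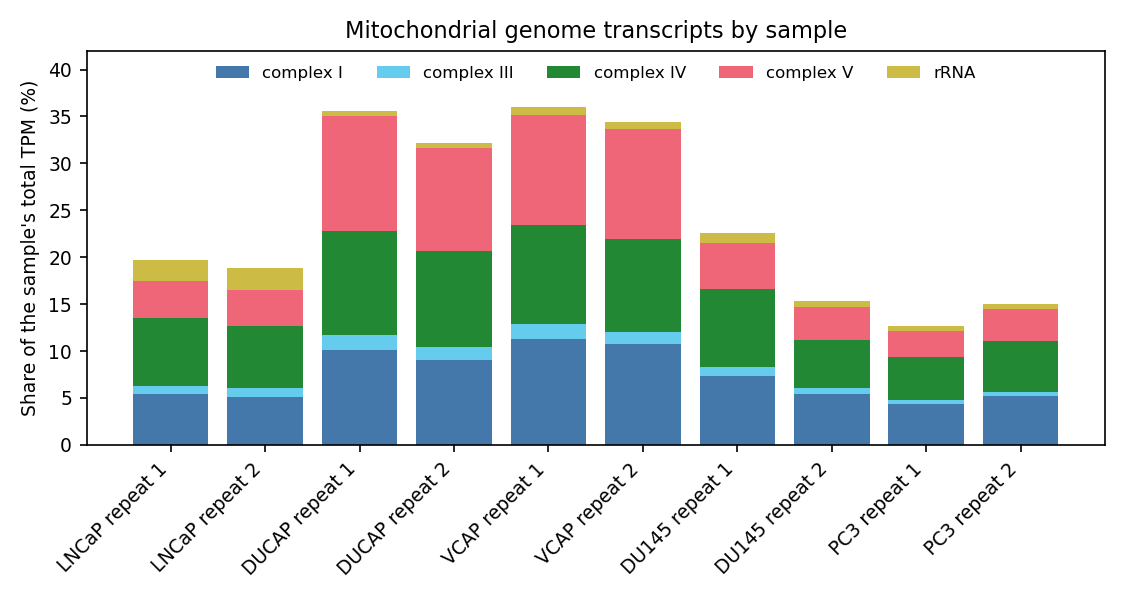
Stacked bars give the share of each sample's total TPM (percent, y axis) held by the genes of complex I, III, IV and V and by the rRNAs, with 1 bar per sample. The complex V part is between 11.0 and 12.2% in DUCAP and VCAP and between 2.72 and 4.96% in the other 6 samples.

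Of the 37 genes, 15 were above 0 in the table, namely the 13 protein genes and both rRNAs, and these 15 passed the filter of 1 TPM in 2 samples. All 22 tRNA genes, 59 to 75 bases long, were listed at 0 in all 10 samples. Whether RNAs this short could be counted in these libraries was not examined, so the value of 0 is not a measured absence. Mitochondrial genes filled 10 to 13 of the 15 highest positions in every sample. The highest symbol of another kind was EEF1A1, RPS27, FTH1 or MSMP, at 8065 to 13653 TPM.

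MT-ATP8 encodes a small subunit of ATP synthase. Its level was 22629 and 22196 TPM in LNCaP, 90064 and 79761 TPM in DUCAP, 86030.3 and 88473 TPM in VCAP, 29367 and 21177 TPM in DU145, and 15456 and 19553 TPM in PC3. The 4 samples of DUCAP and VCAP did not overlap with the other 6, and their mean was 3.96 times the mean of those 6. DUCAP and VCAP overlapped, LNCaP lay within the range of the DU145 repeats, and PC3 lay below both. It was the highest symbol of the whole table in all 4 DUCAP and VCAP samples and in DU145 repeat 2, and held rank 2 or 4 in the others. MT-ATP6, the proton channel subunit, was at 28079 to 31137 TPM in DUCAP and VCAP and at 11294 to 19599 TPM in the other lines, a ratio of means of 1.97.

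Complex IV, cytochrome c oxidase, takes its catalytic core from MT-CO1, MT-CO2 and MT-CO3. MT-CO1 was at 24047 and 21581 TPM in LNCaP, 27905 and 26948 TPM in DUCAP, 27505 and 25008 TPM in VCAP, 24397 and 14315 TPM in DU145, and 15144 and 15989 TPM in PC3. The ratio of the means of these 4 and 6 samples, 1.39, was the smallest among the 13 protein genes, and the lowest of the 4, at 25008 TPM, lay just above the highest of the 6, at 24397 TPM. MT-CO2 was at 23612 and 23142 TPM in LNCaP, 49723 and 45389 TPM in DUCAP, 45287 and 43351 TPM in VCAP, 30084 and 19985 TPM in DU145, and 17920 and 21992 TPM in PC3. Its ratio of means was 2.02, close to that of MT-ATP6. MT-CO3 had a ratio of 1.62, with 28901 to 31867 TPM in DUCAP and VCAP and 12104 to 26752 TPM in the others.

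Complex I, the NADH dehydrogenase, has 7 mitochondrial subunits. MT-ND1 was at 7556 and 7332 TPM in LNCaP, 17052 and 13557 TPM in DUCAP, 27828 and 22657 TPM in VCAP, 10245 and 7327 TPM in DU145, and 8098 and 9279 TPM in PC3. VCAP stood above all other samples, DUCAP came next, and the DU145 repeats spanned both LNCaP and PC3. MT-ND2, MT-ND3, MT-ND4, MT-ND4L and MT-ND5 were each higher in all 4 samples of DUCAP and VCAP than in the other 6, with ratios of means between 1.64 for MT-ND3 and 2.21 for MT-ND5.

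MT-ND6, the complex I gene on the opposite strand, behaved differently. It was at 480 and 445 TPM in LNCaP, 362 and 364 TPM in DUCAP, 577 and 724 TPM in VCAP, 222 and 144 TPM in DU145, and 258 and 234 TPM in PC3. The lines did not overlap, in the order VCAP, LNCaP, DUCAP, PC3 and DU145. It was also the least abundant of the 15 in every sample, with ranks between 141 and 988 of all symbols. Whether reads were assigned by strand in the quantification is not given in the sources used here, and without that, MT-ND6 cannot be told apart from RNA of the opposite strand. Its levels are also those after enrichment for polyadenylated RNA, and the part of that selection was not tested.

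MT-CYB, the cytochrome b of complex III, was at 8841 and 8589 TPM in LNCaP, 15818 and 13578 TPM in DUCAP, 15781 and 13106 TPM in VCAP, 9962 and 5896 TPM in DU145, and 3792 and 4556 TPM in PC3. PC3 lay below every other sample.

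The rRNAs were ordered unlike the mRNAs. MT-RNR1, the RNA of the small ribosomal subunit (chrM:648-1601), was at 4742 and 4952 TPM in LNCaP, 753 and 769 TPM in DUCAP, 836 and 849.5 TPM in VCAP, 1232 and 949.9 TPM in DU145, and 768 and 666 TPM in PC3. Both LNCaP repeats were above all other samples, DU145 came next, and PC3 and DUCAP overlapped below VCAP. MT-RNR2, the RNA of the large subunit (chrM:1671-3229), was at 17106 and 18931 TPM in LNCaP, 4684 and 4206 TPM in DUCAP, 7544 and 6767 TPM in VCAP, 8643 and 5002 TPM in DU145, and 4986 and 4556 TPM in PC3. Again LNCaP was highest, the DU145 repeats spanned VCAP, and PC3 and DUCAP overlapped below both. Enrichment for polyadenylated RNA retains rRNA only in part, so these are levels after that selection.

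**Figure D2:**
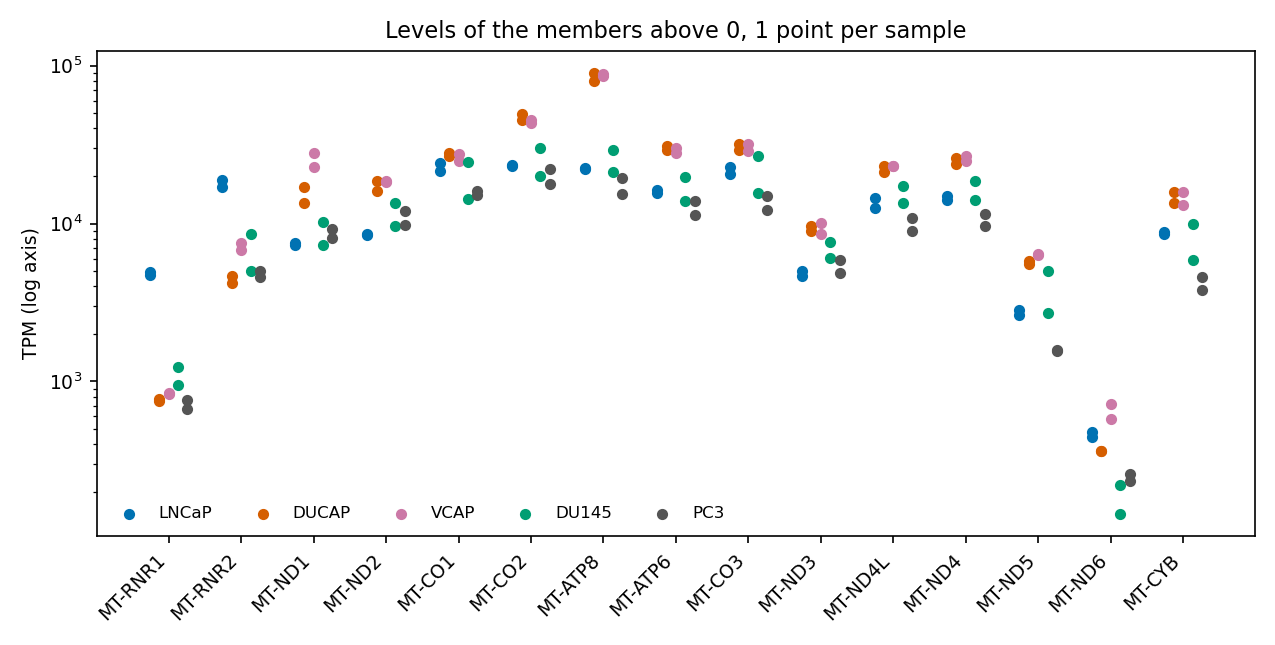
Levels in TPM (y axis, log scale) of the 15 mitochondrial genes above 0, in order of position, with 1 point per sample coloured by line. DUCAP and VCAP are at the top for 12 of the 15, LNCaP is at the top for MT-RNR1 and MT-RNR2, and VCAP and LNCaP are at the top for MT-ND6.

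Counted over genes, 12 of the 15 had all 4 samples of DUCAP and VCAP above the other 6, and the exceptions were MT-ND6, MT-RNR1 and MT-RNR2. Among all 17520 tested symbols 6.56% did so. Both LNCaP samples were above the other 8 for MT-RNR1 and MT-RNR2, and for 19.6% of all symbols. Because the joint share was known beforehand, these counts are descriptions.

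Rescaling each sample to the sum of its 37 mitochondrial genes removed the common part and left the make-up. DUCAP had 25.6 and 25.0% of that sum in MT-ATP8, VCAP 24.1 and 26.0%, DU145 13.2 and 14.1%, PC3 12.4 and 13.3%, and LNCaP 11.7 and 11.9%. It was the only gene of the 15 with all 4 DUCAP and VCAP samples above the other 6 on this scale, where 2.61% of all symbols were so placed. Shares of 1 sum are not independent of each other, so a larger part for MT-ATP8 lowers the parts of the others.

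For MT-CO1, LNCaP had 12.4 and 11.6%, PC3 12.1 and 10.8%, DU145 11.0 and 9.52%, DUCAP 7.92 and 8.46%, and VCAP 7.71 and 7.34%. It was among 5 genes that were lower in all 4 samples of DUCAP and VCAP, with MT-CO3, MT-ND4, MT-RNR1 and MT-RNR2, and 52.8% of all symbols were lower in the same way. MT-CO2 and MT-ATP6 stayed between 12.2 and 14.9% and between 8.24 and 9.37% over all 10 samples.

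For MT-RNR1, LNCaP had 2.45 and 2.66% of the sum, DU145 0.554 and 0.632%, PC3 0.615 and 0.452%, VCAP 0.234 and 0.249%, and DUCAP 0.214 and 0.241%. For MT-RNR2, LNCaP had 8.85 and 10.2%, PC3 3.99 and 3.09%, DU145 3.89 and 3.33%, VCAP 2.11 and 1.99%, and DUCAP 1.33 and 1.32%. On this scale the rRNAs fell into 3 levels, with LNCaP highest, DU145 and PC3 between, and DUCAP and VCAP lowest. Both LNCaP samples were above the other 8 for MT-RNR1, MT-RNR2, MT-ND6 and MT-CYB, against 15.7% of all symbols.

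By complex, the make-up moved mainly in complex V and the rRNAs. Complex V held 32.6 to 34.4% of the sum in DUCAP and VCAP and 20.1 to 23.3% in the others. Complex IV held 28.5 to 31.9% against 33.2 to 36.5%, complex I between 27.3 and 35.6% in all samples, and complex III between 3.04 and 4.61%. The rRNAs held 11.3 and 12.8% in LNCaP, 1.54 to 2.35% in DUCAP and VCAP, and 3.54 to 4.61% in DU145 and PC3.

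**Figure D3:**
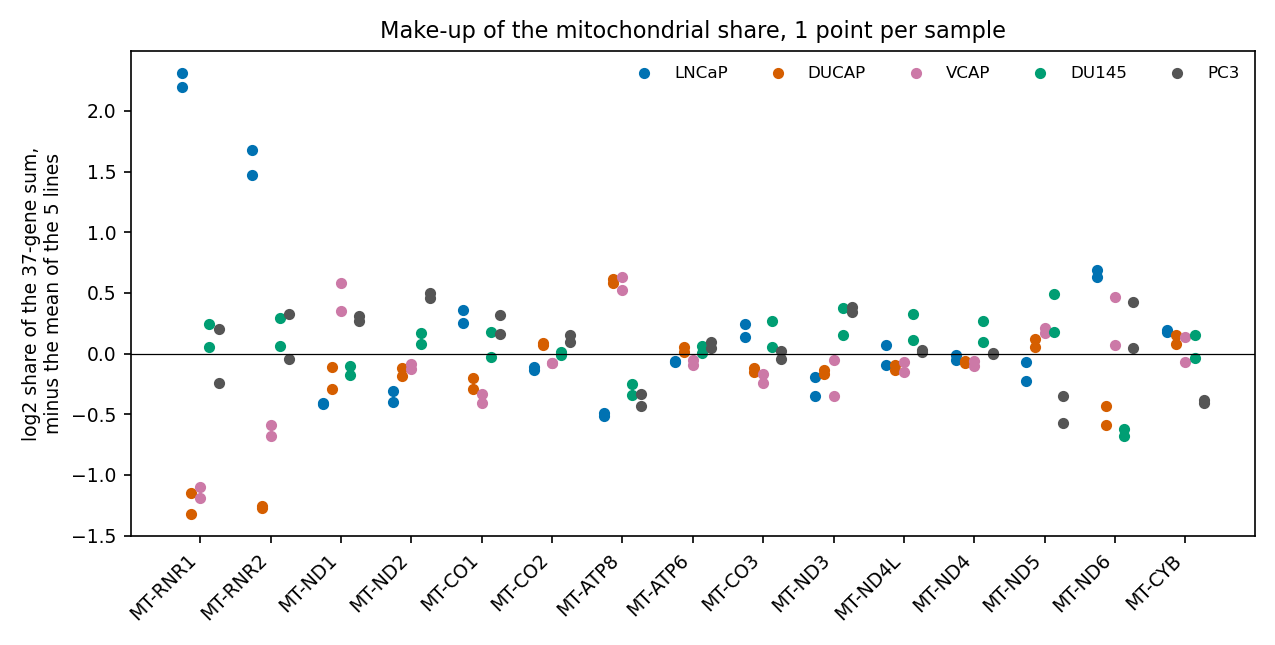
For each of the 15 genes, the log2 share of the 37-gene sum minus the mean of the 5 lines (y axis), with 1 point per sample. MT-RNR1 and MT-RNR2 are highest in LNCaP and lowest in DUCAP and VCAP, MT-ATP8 is highest in DUCAP and VCAP, and MT-CO2 and MT-ATP6 stay near 0.

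Ratios within a sample do not depend on the total. For MT-ATP8 to MT-CO1, VCAP had 3.33 ± 0.290, DUCAP 3.09 ± 0.189, DU145 1.34 ± 0.195, PC3 1.12 ± 0.143 and LNCaP 0.985 ± 0.0619. For MT-ATP8 to MT-CO2, VCAP had 1.90 and 2.04, DUCAP 1.81 and 1.76, DU145 0.976 and 1.06, LNCaP 0.958 and 0.959, and PC3 0.862 and 0.889. Both ratios separated the 4 samples of DUCAP and VCAP from the other 6, and MT-CO2 to MT-CO1 was also higher there, at 1.65 to 1.78 against 0.982 to 1.40.

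The overlapping pairs printed above differed from each other. For MT-ATP8 to MT-ATP6, VCAP had 2.84 and 3.15, DUCAP 2.89 and 2.74, DU145 1.50 and 1.53, LNCaP 1.39 and 1.43, and PC3 1.37 and 1.42. DUCAP and VCAP overlapped, and no sample of another line came above 1.53. MT-ND4L to MT-ND4 was between 0.865 and 0.972 in all 10 samples, with overlap of all 5 lines except that DU145 and PC3 lay above DUCAP. The ratio of MT-ND4L to its partner thus spanned 0.865 to 0.972, and that of MT-ATP8 1.37 to 3.15. How the quantification divided reads over the shared bases is not given in the sources used here, and its part in either ratio was not tested. The effective gene length weighs most on short genes, and MT-ATP8 is the shortest protein gene. The part of that length in the levels, shares and ratios of MT-ATP8 was not tested either.

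Other pairs of plus-strand genes were compared as well, chosen after their values were seen. MT-RNR2 to MT-ND1, which are separated by 1 tRNA gene, came to 2.26 and 2.58 for LNCaP, 0.844 and 0.683 for DU145, 0.616 and 0.491 for PC3, 0.275 and 0.310 for DUCAP, and 0.271 and 0.299 for VCAP. Thus MT-RNR2 exceeded MT-ND1 only in the LNCaP samples. MT-ND1 to MT-ND2 was 1.49 and 1.23 in VCAP and between 0.755 and 0.917 in the other 8 samples. MT-ND2 to MT-CYB was 2.59 and 2.62 in PC3 and between 0.950 and 1.65 in the others.

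The rRNAs also differed from each other, as MT-RNR2 to MT-RNR1 was 3.61 and 3.82 in LNCaP, 9.02 and 7.97 in VCAP and between 5.27 and 7.02 in the remaining lines. Across strands, MT-ND5 to MT-ND6 came to 22.5 and 18.8 for DU145, 16.1 and 15.2 for DUCAP, 11.1 and 8.70 for VCAP, 6.06 and 6.78 for PC3, and 5.49 and 6.39 for LNCaP. LNCaP and PC3 overlapped, and the other lines followed in the order VCAP, DUCAP, DU145 without overlap.

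**Figure D4:**
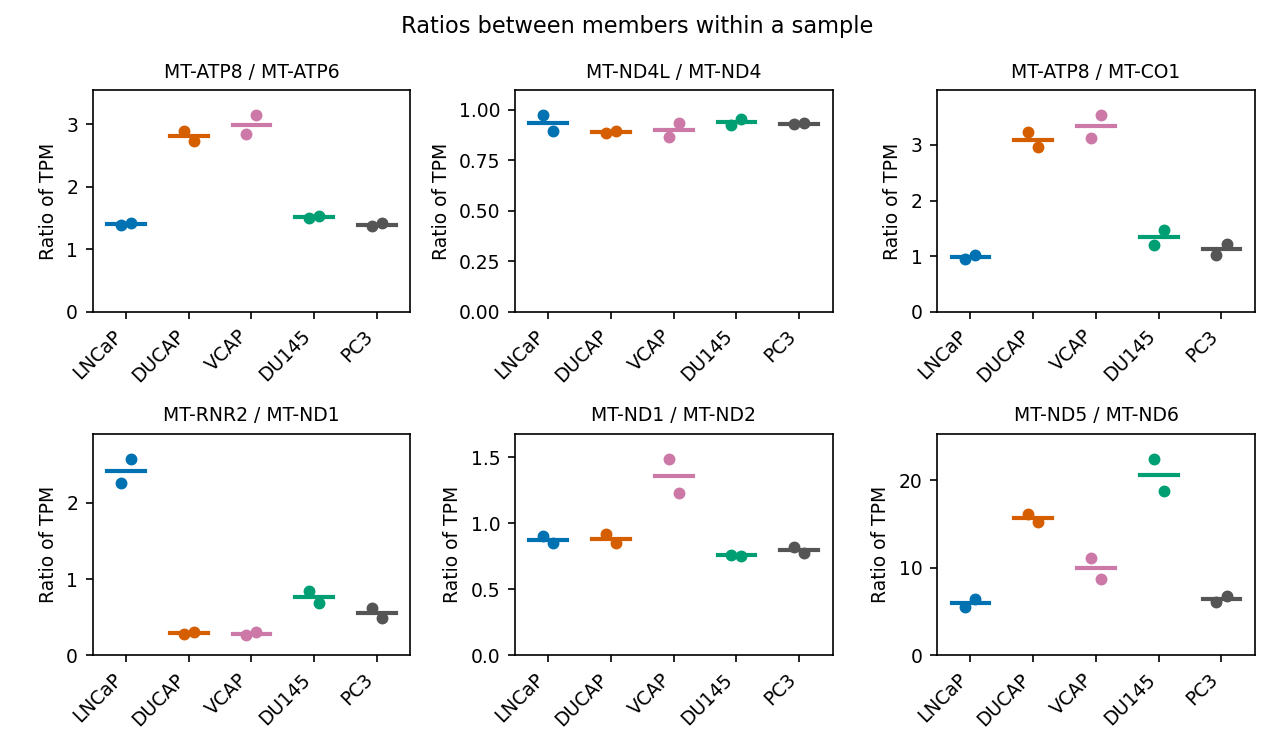
Ratios of TPM between 2 mitochondrial genes within a sample (y axis, from 0), with 1 point per sample and a line at the mean of each cell line. MT-ATP8 to MT-ATP6 is at 2.74 to 3.15 in DUCAP and VCAP and at 1.37 to 1.53 elsewhere, while MT-ND4L to MT-ND4 stays between 0.865 and 0.972.

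The spread between repeats was largest in DU145. All 15 genes were higher in DU145 repeat 1 than in repeat 2, by a median of 0.50 on the log2 scale (0.34 to 0.88), and for all 15 this was the largest gap of the 5 lines. On the scale of the 37-gene sum the DU145 gap had a median of -0.06, with 7 genes higher in repeat 1 and 8 in repeat 2. In PC3, 12 of the 15 were higher in repeat 2, with a median gap of -0.25 on TPM. The range of the 5 line means exceeded the largest gap between repeats for 15 of 15 genes on either scale, with a median range of 1.28 and a median gap of 0.50 on TPM, and of 0.68 and 0.21 on the 37-gene sum.

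Of the 15 genes, the 12 other than MT-ATP8, MT-CO1 and MT-CO2 were followed in a limma fit over all 17520 symbols on log2(TPM + 1), with Benjamini-Hochberg adjustment at 0.05 and 4 contrasts that together hold all differences between the lines. P-values measure the spread between repeats of these cultures. All lines share 1 estimate of that spread, so leaving out a repeat of any line moves the p-values of every contrast. A contrast that does not hold that line keeps its folds. The 12 are not independent of the known share, so their counts are given beside the share of all symbols that passed. On TPM their p-values largely carry that share again and are descriptions, not a test of it. The median log2 fold change of all symbols was -0.40, 0.46, -0.12 and 0.00 in the 4 contrasts on TPM, and -0.02, 0.00, 0.00 and 0.00 under median-ratio scaling. Of all symbols past the threshold, 30.2, 76.1, 23.2 and 48.3% were higher on TPM, and 47.9, 51.3, 45.8 and 50.1% under median-ratio scaling. That scaling left 12, 12, 0 and 5 of the mitochondrial genes past the threshold, and 72.5, 59.7, 20.3 and 48.7% of all symbols.

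In LNCaP, DUCAP and VCAP against DU145 and PC3, all 12 were higher as a mean over lines, with a median log2 fold change of 0.71. Of all symbols 74.4% passed, 22.5% as higher and 51.9% as lower, with a median of -0.40. Single lines did not all follow the mean. LNCaP had the lowest mean TPM of the 5 lines for MT-ND1, MT-ND2 and MT-ND3. For MT-RNR2, LNCaP was at 18018 TPM, while DUCAP, at 4445 TPM, lay below DU145 (6823 TPM) and PC3 (4771 TPM). After rescaling to the 37-gene sum, 1 of the 12 was higher (MT-CYB at 0.28) and 2 lower (MT-ND2 at -0.51 and MT-ND3 at -0.53), where 84.2% of all symbols passed, 11.6% as higher and 72.6% as lower. Under quantile normalization 4 were higher and 1, MT-ND2, was lower, where 73.2% of all symbols passed, 6896 as higher and 5932 as lower. The largest folds were those of MT-ND6, at 1.18 (SE 0.13, limma adjusted p = 5.5e-05, and 1e-05 to 0.051 over the alternatives), and of MT-CYB, at 1.12 (SE 0.15, limma adjusted p = 0.00021, and 3.4e-05 to 0.037 over the alternatives).

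In LNCaP against the mean of DUCAP and VCAP, 10 of the 12 passed, with 2 higher and 8 lower and a median log2 fold change of -0.78, whereas 64.6% of all symbols passed, 49.2% as higher and 15.5% as lower. The 2 were the rRNAs. MT-RNR1 was higher by 2.60 (SE 0.12, limma adjusted p = 1e-06, and 7.1e-07 to 9.9e-05 over the alternatives) and MT-RNR2 by 1.68 (SE 0.20, limma adjusted p = 0.00013, and 2.1e-06 to 0.0041). On the 37-gene sum the values were 3.44 and 2.53, MT-ND6 and MT-CO3 were also higher, at 0.78 and 0.36, and MT-ND1 alone was lower, at -0.54, where 74.4% of all symbols passed, 66.9% as higher and 7.51% as lower. The 8 that were lower on TPM were all mRNAs, from -0.74 for MT-CYB to -1.39 for MT-ND1. MT-CO3, at -0.49, and MT-ND6, at -0.07, did not pass.

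DUCAP and VCAP differed in few of the 12. MT-ND6 and MT-ND1 were lower in DUCAP, at -0.83 (SE 0.20, limma adjusted p = 0.025) and -0.72 (SE 0.20, limma adjusted p = 0.039), where 18.3% of all symbols passed and 14.0% were lower. The median of the 12 was -0.08. Neither call was firm. MT-ND6 missed the threshold in 11 and MT-ND1 in 13 of 18 alternatives, with limma adjusted p between 0.0045 and 0.13 and between 0.016 and 0.22. Among these are fits without 1 repeat of LNCaP, DUCAP, VCAP or PC3. Leaving out an LNCaP or PC3 repeat kept both folds and changed the shared spread. In that spread, DU145 had the largest gap between repeats for all 15 genes. With 1 sample left out, the fold was -0.99 to -0.67 for MT-ND6 and -0.89 to -0.56 for MT-ND1. On the 37-gene sum 0 of the 12 passed, 3 had an unadjusted p under 0.05, and 7.03% of all symbols passed, 1.47% as higher and 5.55% as lower. Under median-ratio scaling 0 passed and 1 had an unadjusted p under 0.05, where 20.3% of all symbols passed.

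DU145 and PC3 differed in 5 of the 12, all higher in DU145 (MT-ND5, MT-CYB, MT-ND4L, MT-ND4 and MT-RNR1), where 49.3% of all symbols passed and 23.8% were higher. The median of the 12 was 0.53. MT-ND5 was higher by 1.22 (SE 0.24, limma adjusted p = 0.0034, and 2.2e-05 to 0.031 over the alternatives) and MT-CYB by 0.88 (SE 0.24, limma adjusted p = 0.015, and 0.0011 to 0.11). Without DU145 repeat 1 the values were 0.78 and 0.50, and MT-CYB missed the threshold in 3 of 18 alternatives, among them the fit without PC3 repeat 1. The count depended on DU145 repeat 2 and PC3 repeat 1, and it was 9 without the former and 2 without the latter. On the 37-gene sum, MT-ND5 stayed higher, at 0.79 (limma adjusted p = 0.0086), and MT-ND6 was lower, at -0.88 (limma adjusted p = 0.011), where 46.2% of all symbols passed, 13.7% as higher and 32.5% as lower.

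The nuclear genome carries pseudogene copies of mitochondrial genes that share sequence with them. Of 407 such symbols, 369 were at 0 in all samples and 6 exceeded 1 TPM. MTATP6P1, a copy of MT-ATP6, held 94.6 to 98.2% of their sum, at 1560 to 5792 TPM. Aligned to MT-ATP6, 671 of its 681 bases were identical, and of the MT-ATP8 sequence printed above only the overlap aligned to it, with 45 identical bases. MTATP6P1 was at 17.6 to 19.5% of MT-ATP6 in DUCAP and VCAP and at 13.3 to 13.9% in the other 6 samples, so the groups did not overlap. Its level cannot be told apart from reads of MT-ATP6 that were divided between both. The copies together came to 1.15 to 1.68% of the 37-gene sum, and copies of the rRNAs to no more than 0.09 TPM.

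Finally, 43 nuclear genes that act on mitochondrial DNA and RNA were followed in the same fit. The list was compiled by hand, and 42 of them passed the filter, with PPARGC1A at no more than 0.59 TPM. In LNCaP, DUCAP and VCAP against DU145 and PC3, 10 were higher and 18 lower, with a median log2 fold change of -0.13, where 22.5 and 51.9% of all symbols were so. With TPM rescaled without the mitochondrial genes, 4948 of all 17520 symbols were higher and 7819 lower. These counts were 6092 and 6616 under median-ratio scaling, 6896 and 5932 under quantile normalization and 2036 and 12723 on the 37-gene sum. For the list, the split was 13 and 12 without the mitochondrial genes and 18 and 5 under median-ratio scaling. It was 24 and 5 under quantile normalization and 1 and 32 on the 37-gene sum. Of single samples, leaving out DU145 repeat 2 gave 15 and 16, LNCaP repeat 1 6 and 15, and PC3 repeat 2 5 and 17. MTERF4, which brings a methyltransferase to the large rRNA, was at 40.2 and 48.3 TPM in LNCaP, 36.4 and 47.2 TPM in DUCAP, 88.3 and 86.9 TPM in VCAP, 23.1 and 23.7 TPM in DU145, and 10.9 and 10.4 TPM in PC3. It was higher by 1.72 (limma adjusted p = 1.3e-06), and ESRRA, a nuclear receptor of energy metabolism, by 0.76 (limma adjusted p = 0.00032), which became -0.0496 on the 37-gene sum. TFB1M, the methyltransferase of the small rRNA, and PRORP, the nuclease of mitochondrial RNase P, were both lower, at -1.60 (limma adjusted p = 7.7e-05 and 9.1e-05). By role, 4 of the 7 replication genes were lower and 0 higher on TPM, against 2 lower and 3 higher under median-ratio scaling.

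In LNCaP against DUCAP and VCAP, 19 were higher and 6 lower, with a median of 0.47 against 0.46 over all symbols, of which 49.2 and 15.5% were so. With TPM rescaled without the mitochondrial genes, 7193 of all 17520 symbols were higher and 3617 lower. These counts were 5365 and 5097 under median-ratio scaling, 5272 and 5183 under quantile normalization and 11721 and 1316 on the 37-gene sum. For the list, the split was 14 and 8 without the mitochondrial genes and 7 and 13 under median-ratio scaling and under quantile normalization. It was 29 and 1 on the 37-gene sum. Of the mRNA stability genes 7 of 10 were higher and 1 lower on TPM, against 3 and 1 under median-ratio scaling. Of the cleavage genes 4 of 5 were higher on TPM, and 1 of 5 under median-ratio scaling. That 1 was HSD17B10, another subunit of mitochondrial RNase P, at 156 and 138 TPM in LNCaP, 24.4 and 28.0 TPM in DUCAP, 23.6 and 23.6 TPM in VCAP, 48.6 and 92.6 TPM in DU145, and 141 and 134 TPM in PC3, and higher by 2.52 (limma adjusted p = 2.3e-05). TFB2M, an initiation factor of mitochondrial transcription, was higher by 1.63 (limma adjusted p = 0.00013). REXO2, which degrades the short remnants of RNA decay, was at 81.1 and 85.7 TPM in LNCaP and 206 to 294 TPM in DUCAP and VCAP, and was lower, at -1.55 (limma adjusted p = 9.1e-06). TOP1MT, the mitochondrial topoisomerase, was lower, at -0.86 (limma adjusted p = 0.00031, and 1.9e-05 to 0.9 over the alternatives).

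DUCAP and VCAP differed in 8 of the list, with 4 higher and 4 lower, with a median of 0.04, where 4.24 and 14.0% of all symbols were so. Without the mitochondrial genes, 810 of all 17520 symbols were higher and 2976 lower. These counts were 1631 and 1934 under median-ratio scaling and 1805 and 1783 under quantile normalization. For the list, the split was 5 and 5 without the mitochondrial genes and 5 and 1 under median-ratio scaling and under quantile normalization. PPARGC1B, a coactivator of respiratory genes, and TOP1MT were higher in DUCAP, at 0.86 and 0.85 (limma adjusted p = 0.0093 and 0.0044), and PPARGC1B missed the threshold in 3 of 18 alternatives, among them the fits without DUCAP or VCAP repeat 2. MTERF4 and MRM2, which modifies the large rRNA, were lower, at -1.06 and -0.82 (limma adjusted p = 0.0029 and 0.043), and MRM2 missed the threshold in 13 of 18 alternatives. Between DU145 and PC3, 8 were higher and 8 lower in DU145, with a median of -0.03, where 23.8 and 25.5% of all symbols were so. The split was 1 and 9 on the 37-gene sum, where 13.7 and 32.5% of all symbols were so. On TPM, the median of the list was 0.22 without DU145 repeat 1, -0.26 without DU145 repeat 2 and -0.13 without PC3 repeat 2. MRM1, which also modifies the large rRNA, was at 6.65 and 16.0 TPM in DU145 and at 2.96 and 2.81 TPM in PC3, a difference of 1.55 (limma adjusted p = 0.0051), which was 2.13 without DU145 repeat 1 and 0.98 without DU145 repeat 2. PPRC1, a coactivator, was higher by 1.10 (limma adjusted p = 0.013), or by 0.65 without DU145 repeat 2, and missed the threshold without PC3 repeat 2 and on the 37-gene sum. The RNA-binding protein FASTKD5 and the RNA helicase SUPV3L1 were lower, at -1.08 and -1.14 (limma adjusted p = 0.00035 and 0.0012).

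POLRMT, TFAM and LRPPRC were followed in every contrast. POLRMT, the mitochondrial RNA polymerase, was lower in LNCaP, DUCAP and VCAP against DU145 and PC3, at -0.49 (limma adjusted p = 0.0047, a log2 fold change of 0.0484 under quantile normalization, and 15 of 18 alternatives past the threshold), and higher in DUCAP against VCAP, at 0.71 (limma adjusted p = 0.031), and in DU145 against PC3, at 0.67 (limma adjusted p = 0.015). The call between DUCAP and VCAP was lost in 9 of 18 alternatives (limma adjusted p up to 0.23), among them the fits without either LNCaP, DUCAP or PC3 repeat or VCAP repeat 2. That between DU145 and PC3 was lost in 4, namely on the 37-gene sum, where the fold was 0.26, and without DU145 repeat 2 or either PC3 repeat. In LNCaP against DUCAP and VCAP it was at 0.27 (limma adjusted p = 0.16). TFAM, which packages mitochondrial DNA and opens its promoters, was higher in LNCaP against DUCAP and VCAP, at 0.55 (limma adjusted p = 0.037, and -0.10 on the log2 scale under median-ratio scaling), and lower in DU145 against PC3, at -0.84 (limma adjusted p = 0.015). The former call was kept in 8 of 18 alternatives (limma adjusted p from 0.004 to 0.83) and was lost without either LNCaP or PC3 repeat, DUCAP repeat 1 or VCAP repeat 1. The latter was lost without DU145 repeat 1, where the fold was -0.53, and without PC3 repeat 1. In the other contrasts TFAM was at -0.12 (limma adjusted p = 0.48) and -0.15 (limma adjusted p = 0.74). LRPPRC, which stabilises mitochondrial mRNAs, was at 53.2 and 56.7 TPM in LNCaP, 67.5 and 79.2 TPM in DUCAP, 96.7 and 108 TPM in VCAP, 74.8 and 105 TPM in DU145, and 48.6 and 42.3 TPM in PC3. It was lower in LNCaP against DUCAP and VCAP, at -0.65 (limma adjusted p = 0.0064, and 0.19 on the log2 scale on the 37-gene sum), and higher in DU145 against PC3, at 0.95 (limma adjusted p = 0.0028). The former call was lost without LNCaP repeat 1, and the latter on the 37-gene sum. In the first contrast LRPPRC was at 0.23 (limma adjusted p = 0.11, and 8.4e-05 to 0.32 over the alternatives), and it passed as higher at 0.47 without the mitochondrial genes, 0.69 under median-ratio scaling, 0.76 under quantile normalization and 0.35 without DU145 repeat 2, and as lower at -0.60 on the 37-gene sum. Between DUCAP and VCAP it was at -0.48 (limma adjusted p = 0.11), and it passed as lower in 3 of 18 alternatives, without the mitochondrial genes and without either DU145 repeat.

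**Figure D5:**
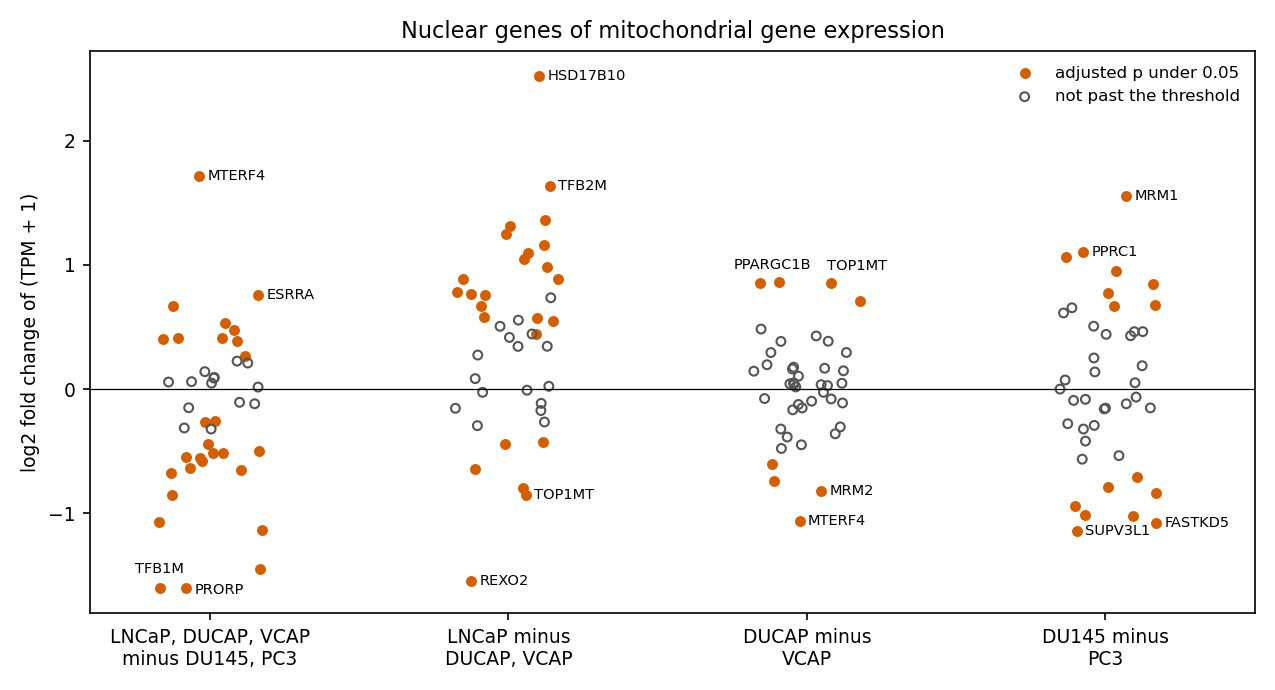
Log2 fold changes of log2(TPM + 1) for the 42 tested nuclear genes (y axis) in the 4 contrasts, with filled points past a limma adjusted p of 0.05. Labels mark the 2 largest increases and 2 largest decreases past the threshold in each contrast. HSD17B10 at 2.52 and MTERF4 at 1.72 are the highest points. The split between higher and lower moves with the scaling, for example from 10 and 18 to 18 and 5 in the first contrast under median-ratio scaling. Over all symbols that split moved from 3940 and 9093 to 6092 and 6616.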

How the data were processed

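Poly(A)-enriched, strand-specific libraries of 10 samples (5 cell lines, 2 biological repeats each) were sequenced by the study. Per its methods and the submitters' processing notes, reads were checked with FastQC 0.11.9, trimmed with Trim Galore 0.6.5, aligned with STAR 2.7.2b to GRCh38, and quantified with RSEM 1.3.3, and the authors deposited TPM without pooling repeats. RSEM divides by an effective gene length and shares reads between overlapping genes and copies, which weighs most on short genes. Because depth cannot be recovered from TPM, counting intervals were not computed.

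The 37 genes, the nuclear list and the ratios were chosen with earlier results of these data known. The filter required 1 TPM or more in 2 or more of the samples and kept 17520 symbols. limma 3.58.1 (R 4.3.3) was fitted to log2(TPM + 1), each line having its own coefficient and the prior variance following the mean level, and p-values were adjusted by the Benjamini-Hochberg method at 0.05. Fold changes on this scale understate those of low genes. All 15 mitochondrial genes above 0 are named. Of the nuclear list, POLRMT, TFAM and LRPPRC and, per contrast, the 2 largest increases and 2 largest decreases past the threshold were named. Of the 12 tested mitochondrial genes, statistics are given for the 2 with the largest absolute fold per contrast, a rule set after the values were seen, as are those of a few others that the text names. Whether repeat numbers pair samples of different lines is not stated. The deviations of same-numbered samples correlated at 0.00922 on average over 10 pairs of lines (-0.191 to 0.249), which cannot exclude pairing. The titles also carry culture numbers, which for DU145 and PC3 differ in part from the repeat numbers. The repeat numbers were used. The limma step was tested on simulated data. Alternatives were another pseudocount, no filter, 4 scalings, no variance trend, a fold threshold, the repeat number as a block, and each sample left out. Sequences were read by name from GENCODE transcripts on GRCh37, and all 37 genes have the same positions there as in RefSeq on GRCh38.p14. Sequences of encoded proteins were not used here. Python 3.11.15, pandas 2.3.3, matplotlib 3.10.9 and Biopython 1.88 were used.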

Additional observations from a re-analysis of the deposited data

How the results depend on the processing

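Among 36 folds of named genes under 648 alternatives, 547 kept their direction and side of the threshold, 76 fell below it, 9 passed it and 16 reversed; of 152 recounts of genes past the threshold, 111 stayed within 1.5 times. Contrasts are taken in the order of the report, and the cause of a change was not tested. For the 12 mitochondrial genes, counts became 3, 5, 0 and 2 on the 37-gene sum and 2, 5, 0 and 1 with a log2 fold change of at least 1 required. The first was 5 under quantile normalization, where 73.2% of all symbols passed. The third was 1 with a pseudocount of 0.1 and with TPM rescaled without the mitochondrial genes, and 0 without the filter and under median-ratio scaling, where 3 and 1 genes had an unadjusted p under 0.05. The fourth was 2 without the filter. Leaving out 1 sample gave 10 to 12, 9 to 11, 0 to 3 and 2 to 9, where the lone repeat is assumed to vary like the other lines. For the nuclear list, a log2 fold change of at least 1 left 6, 9, 1 and 7. The third count was 4 without the filter and 0 on the 37-gene sum, where 6 genes had an unadjusted p under 0.05, and the fourth was 10 on the 37-gene sum. Leaving out 1 sample gave 21 to 31, 14 to 30, 2 to 10 and 10 to 22. The second was 14 without LNCaP repeat 1, the third 2 to 5 without any 1 repeat of LNCaP, DUCAP, VCAP or PC3, and the fourth 10 without PC3 repeat 2. Reversed folds in the first contrast were ESRRA at -0.0496 and LRPPRC at -0.60 on the 37-gene sum, POLRMT at 0.0484 under quantile normalization, and TFAM at 0.12 without the mitochondrial genes, 0.34 under median-ratio scaling, 0.43 under quantile normalization and -0.27 to 0.0346 with 1 sample left out. In the second, POLRMT was at -0.0075 without the mitochondrial genes, -0.37 under median-ratio scaling and -0.33 under quantile normalization, TFAM at -0.10 and -0.0534 under the latter 2, and LRPPRC at 0.19 on the 37-gene sum. In the third, TFAM was at 0.0613 and 0.0203 under the same 2 and -0.33 to 0.0257 with 1 sample left out. With the repeat number as a block, the mitochondrial counts were 12, 10, 2 and 5 and the nuclear counts 27, 25, 6 and 16, and of the named genes MRM2 alone lost its call, in the third contrast. The labels do not say whether same-numbered samples belong together. The culture numbers in the titles, which for DU145 and PC3 differ in part from the repeat numbers, were not used as a block.

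The mitochondrial share of LNCaP was 17.0% over the 13 protein genes and 17.0% without MT-ATP8. Without MT-ATP8 it was 25.3% in DUCAP, 26.4% in VCAP and 12.1% in PC3. With 1 repeat alone it was 18.9 to 19.7% in LNCaP, 32.1 to 35.5% in DUCAP, 34.5 to 36.0% in VCAP, 15.3 to 22.5% in DU145 and 12.7 to 15.0% in PC3. The MT-ATP8 to MT-CO1 ratio was 0.941 to 1.03, 2.96 to 3.23, 3.13 to 3.54, 1.20 to 1.48 and 1.02 to 1.22 in the same order. With MT-ATP6 added to MT-ATP8 it was 1.68, 4.19, 4.44, 2.23 and 1.93. Adding the nuclear copies moved share and ratio by less than the spread between repeats.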
